A study of Saccharomyces cerevisiae with 6 samples.

Results

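The 36 genes described here are general stress genes of budding yeast, of the kind switched on by the transcription factors Msn2 and Msn4. They were given as a list of names and matched on the gene symbol column of the authors' fold change table. All 36 had 1 probe set each, out of 5420 genes read by a probe set that names 1 gene. The samples were cells of the wild-type strain DBY746, grown at 30 °C in SDC medium (pH 6) from an A600 of 0.002 to an A600 of 2. The 3 control samples received 0.3% ethanol, and the other 3 received 300 ng/ml myriocin in the same share of ethanol, so that the vehicle was common to both groups. Each of the 6 samples was read on 1 single-colour array, as log2 signal per probe set. The series describes the samples of each group as 3 biological replicates, and the labels do not say whether they came from separate cultures. The p-values measure the spread between these samples. Both groups were collected at the same optical density, and the labels used here state no growth rate or time.

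Msn2 and Msn4 are zinc-finger proteins that bind the stress response element, a short motif in the promoters of many stress genes. Protein kinase A and the TORC1 kinase keep them out of the nucleus in well-fed cells, and they enter it under heat, salt, oxidation or loss of glucose. Their targets protect membranes and proteins, supply carbohydrate stores and turn over damaged protein. Myriocin blocks serine palmitoyltransferase, which starts sphingolipid synthesis, and the comparison asks how the expression of such genes differed in cells grown with it.

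Of the 36 genes, 32 rose with myriocin and none fell, by limma at a Benjamini-Hochberg adjusted p under 0.05 over all 5420 genes. Among all genes, 25.5% were called higher and 28.8% lower, or 54.4% in either direction. At an adjusted p under 0.01 the count was 27. The median log2 fold change of the 36 was 1.79, against -0.03 for all genes, and every one of the 36 lay above 0. At least 2-fold rises passed in 26 of them, against 8.95% of all genes, and at least 8-fold rises in 11, against 1.51%. In 35 of the 36, each myriocin array lay above each control array, which held for 30.6% of all genes. SDP1 was the exception. HOR7, STF2, UGA2 and SDP1 did not pass the test. These members were chosen with results of these data known, so the counts describe the list and are no independent evidence of its direction.

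**Figure D1:**
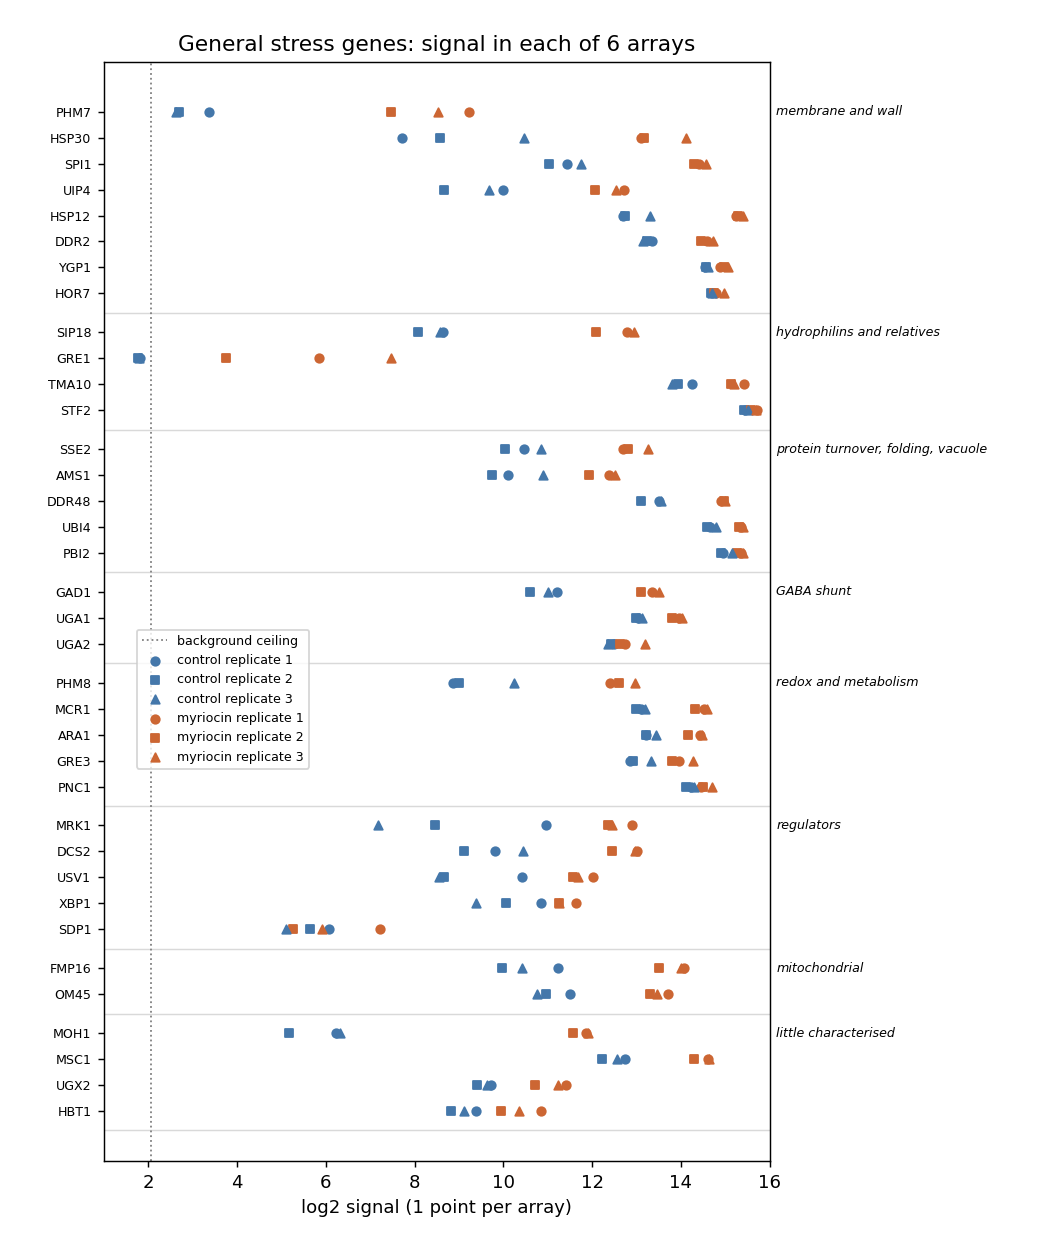
Log2 signal of each of the 36 general stress genes (rows, grouped by role) in the 3 control arrays (blue) and the 3 myriocin arrays (orange), with 1 symbol per array and the symbol shape giving the replicate number. The dotted line is the background ceiling of 2.07. Except in SDP1, all orange points lie to the right of all blue ones.

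The fold changes depend on a common scale for the arrays. The 26 hybridisation controls above background, bacterial and phage transcripts added to each sample, were all lower on the myriocin arrays (median log2 change -0.25). Their changes ranged widely, from -0.96 to -0.04. The scaling used their mean on each array, so its size depends on which controls are taken. The 17 probe sets for ribosomal RNA had a median change of -1.61. After scaling to the hybridisation controls, the median of all genes moved from -0.03 to 0.29, and every log2 fold change rose by the same 0.315. The higher calls then made up 76.9% of all calls, against 47.0%. On that scale 35 of the 36 genes were called higher and their median was 2.10, against 39.9% of all genes called higher and 12% lower. The values below are in the deposited scale, with 3 arrays per group throughout. Signals of different probe sets are not set against each other as amounts of RNA.

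Genes of the plasma membrane, cell wall and endomembranes included some of the steepest rises. PHM7, a predicted membrane protein, had log2 signals of 3.38, 2.68 and 2.61 in the control arrays and 9.23, 7.47 and 8.54 with myriocin. The control values lay only just above the background ceiling of 2.07, the highest value of 50 negative-control probe sets. PHM7 rose by 5.52 on the log2 scale (SE 0.46, limma adjusted p = 0.000368). HSP30, a plasma membrane protein that restrains the proton pump Pma1, stood at 7.72, 8.58 and 10.46 in control cells and at 13.10, 13.16 and 14.13 with myriocin. Its control samples were spread over 2.74 log2 units, with replicate 3 the highest. The rise of HSP30 was 4.54 (SE 0.70, limma adjusted p = 0.00269), or 5.31 without control replicate 3 and 3.94 without control replicate 1. SPI1, a GPI-anchored wall protein linked to weak acid resistance, went from 11.43, 11.02 and 11.75 to 14.42, 14.30 and 14.57, a rise of 3.03 (SE 0.19, limma adjusted p = 0.000162). UIP4, a protein of the endoplasmic reticulum and nuclear envelope, was 8.01-fold higher (limma adjusted p = 0.00116).

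HSP12, a small membrane-protecting protein that is one of the most used reporters of Msn2 and Msn4, had control values of 12.71, 12.75 and 13.30. With myriocin it stood at 15.23, 15.29 and 15.39, a rise of 2.39 (SE 0.17, limma adjusted p = 0.000249). DDR2, a small protein induced by many stresses, rose by 1.35 (SE 0.10), with control values of 13.15 to 13.34 and myriocin values of 14.45 to 14.73. YGP1, a secreted glycoprotein, rose by 0.39 (SE 0.07, limma adjusted p = 0.00552). HOR7, first described as a gene responsive to high osmolarity, had 14.71, 14.68 and 14.69 in control cells and 14.79, 14.74 and 14.98 with myriocin. The groups of HOR7 did not overlap, but its log2 fold change of 0.14 did not pass (95% interval -0.06 to 0.34, limma adjusted p = 0.193). After scaling to the hybridisation controls it was called at 0.46 (limma adjusted p = 0.0189).

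Hydrophilins are small, highly water-loving proteins that protect cells during drying and osmotic stress. SIP18, which also binds phospholipid, had 8.64, 8.07 and 8.58 in control cells and 12.80, 12.08 and 12.94 with myriocin, a rise of 4.18 (SE 0.27, limma adjusted p = 0.000164). GRE1, its paralog, lay at background in all 3 control arrays, at 1.82, 1.77 and 1.79. Its myriocin values were 5.85, 3.76 and 7.48, so that replicate 2 was far below replicate 3. GRE1 was at least 12.3-fold higher with myriocin, taken against the background ceiling (limma adjusted p = 0.0104), or at least 6.65-fold with myriocin replicate 3 left out and at least 24.1-fold with replicate 2 left out. Of a second pair, TMA10 encodes a protein found with ribosomes, and STF2 a protein linked to the inhibitor of ATP synthase and to survival of drying. TMA10 rose by 1.25 (SE 0.14, limma adjusted p = 0.000866), from 14.26, 13.94 and 13.81 to 15.43, 15.14 and 15.21. STF2 was bright in every array, at 15.42 to 15.52 in control cells and 15.58 to 15.71 with myriocin. Its log2 fold change of 0.20 did not pass (95% interval 0.02 to 0.38, limma adjusted p = 0.0592). It was called under quantile normalisation (limma adjusted p = 0.0450), with an intensity trend (0.0105), with values floored at background (0.0296) and after scaling to the hybridisation controls (0.0137).

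All 5 genes of protein folding, protein turnover, the vacuole and repair rose. SSE2, an Hsp110 chaperone that serves as nucleotide exchange factor for Hsp70, went from 10.46, 10.03 and 10.84 to 12.69, 12.80 and 13.26. That rise was 2.47 (SE 0.24, limma adjusted p = 0.000575). AMS1, the vacuolar alpha-mannosidase, rose by 2.04 (SE 0.32), and DDR48, a DNA damage-responsive protein, by 1.57 (SE 0.13). UBI4 encodes polyubiquitin, the stress-induced source of ubiquitin. It had 14.65, 14.59 and 14.79 in control cells and 15.36, 15.32 and 15.40 with myriocin, a rise of 0.68 (SE 0.08, limma adjusted p = 0.000924). Other genes carry a ubiquitin unit fused to a ribosomal protein, and whether the UBI4 probe set also reads them was not checked. PBI2, the cytosolic inhibitor of vacuolar proteinase B, rose by 0.33 (SE 0.09, limma adjusted p = 0.0206), and this call was lost when control 1, control 2, myriocin 1 or myriocin 3 was left out (limma adjusted p from 0.0570 to 0.0746).

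The GABA shunt turns glutamate into succinate in 3 steps. GAD1, the glutamate decarboxylase of the first step, had 11.21, 10.60 and 11.01 in control cells and 13.36, 13.09 and 13.51 with myriocin, a rise of 2.38 (SE 0.18, limma adjusted p = 0.000296). UGA1, the GABA transaminase of the next step, rose by 0.88 (SE 0.08, limma adjusted p = 0.000555), from 12.99 to 13.13 in control cells to 13.81 to 14.02 with myriocin. UGA2, the succinate semialdehyde dehydrogenase of the last step, had 12.48, 12.43 and 12.36 against 12.74, 12.62 and 13.20. Its groups did not overlap, and its log2 fold change of 0.42 did not pass (SE 0.16, limma adjusted p = 0.0592). UGA2 was called without myriocin replicate 2 (0.54, limma adjusted p = 0.0344), after removal of the dimmest genes (limma adjusted p = 0.0443), with an intensity trend (0.0413) and after scaling to the hybridisation controls (0.00383). The 95% interval of GAD1, 1.93 to 2.83, lay above those of UGA1, 0.67 to 1.08, and UGA2, 0.05 to 0.80. The differences between these genes were not themselves tested.

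The 5 genes of redox reactions and small-molecule metabolism all rose. PHM8, a phosphatase of lysophosphatidic acid and nucleotides, went from 8.87, 9.01 and 10.23 to 12.40, 12.60 and 12.97, a rise of 3.29 (SE 0.38, limma adjusted p = 0.000944). Its control replicate 3 stood apart from the other two, as in HSP30. MCR1, the mitochondrial NADH-cytochrome b5 reductase, rose by 1.38 (SE 0.10). ARA1, a dehydrogenase of arabinose and related sugars, rose by 1.06 (SE 0.12), and the aldose reductase gene GRE3 by 0.97 (SE 0.17). PNC1, the nicotinamidase that removes an inhibitor of the deacetylase Sir2, had 14.22, 14.11 and 14.31 against 14.46, 14.50 and 14.69. The small rise of PNC1, 0.34 (SE 0.10, limma adjusted p = 0.0250), lost its call when control 1, control 2 or myriocin 3 was left out (limma adjusted p from 0.0589 to 0.0856).

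Of the 5 regulators on the list 4 rose, and several varied widely between control samples. MRK1, a protein kinase of the glycogen synthase kinase 3 family, had 10.96, 8.46 and 7.17 in control cells, a spread of 3.78 log2 units, and 12.91, 12.36 and 12.44 with myriocin. MRK1 rose by 3.71 (SE 0.90, limma adjusted p = 0.0147), or by 2.86 without control replicate 3 and 4.75 without control replicate 1. Without control replicate 2 the call was lost (3.51, limma adjusted p = 0.0508). USV1, a zinc-finger transcription factor, had 10.42, 8.65 and 8.56 in control cells and 12.01, 11.57 and 11.69 with myriocin. The rise of USV1 was 2.55 (SE 0.50, limma adjusted p = 0.00660), or 3.15 without control replicate 1. XBP1, a transcriptional repressor, had 10.84, 10.05 and 9.39 against 11.63, 11.25 and 11.26. It rose by 1.29 (SE 0.36, limma adjusted p = 0.0235), and the call was lost without control replicate 2, myriocin replicate 1 or myriocin replicate 3 (limma adjusted p from 0.0589 to 0.0712).

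Control replicate 1 was the highest of its group in all 3 of these genes. DCS2, which inhibits the messenger RNA scavenger decapping enzyme Dcs1, rose by 3.02 (SE 0.34, limma adjusted p = 0.000913), from 9.81, 9.11 and 10.44 to 13.003, 12.456 and 12.962. SDP1, a phosphatase of the cell wall MAP kinase Slt2, had 6.06, 5.63 and 5.09 in control cells and 7.22, 5.26 and 5.92 with myriocin. Its groups overlapped, and its log2 fold change of 0.54 (95% interval -0.72 to 1.79, limma adjusted p = 0.411) turned to -0.01 without myriocin replicate 1.

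Both mitochondrial members rose. FMP16, a mitochondrial protein of unknown function, went from 11.22, 9.96 and 10.42 to 14.064, 13.505 and 13.996, a rise of 3.32 (SE 0.33, limma adjusted p = 0.000622). OM45, an abundant protein of the outer mitochondrial membrane, rose by 2.43 (SE 0.21, limma adjusted p = 0.000412). The 4 little-characterised members rose as well. MOH1 had the largest rise of the 36 and ranked 17 among all 5420 genes. Its control values were 6.23, 5.16 and 6.31 and its myriocin values 11.86, 11.57 and 11.91, so that the groups were 5.26 log2 units apart at their nearest. MOH1 rose by 5.88 (SE 0.32, limma adjusted p = 0.000120). MSC1 rose by 2.01 (SE 0.16), UGX2 by 1.54 (SE 0.19) and HBT1 by 1.28 (SE 0.26).

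**Figure D2:**
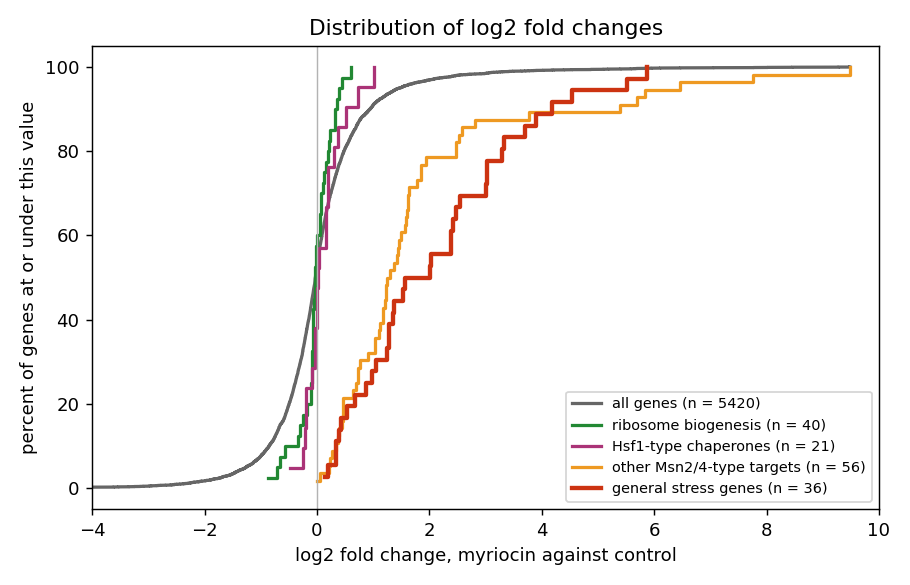
Cumulative percent of genes (vertical axis) at or under each log2 fold change (horizontal axis), for all 5420 genes, the 36 general stress genes and 3 comparison lists. The curves of the general stress genes and of the 56 other Msn2/4-type targets lie to the right of all genes, with medians of 1.79 and 1.27, while those of the Hsf1-type chaperones and ribosome biogenesis genes stay close to 0, with medians of 0.02 and -0.04. The heat shock genes SSA4, HSP26, HSP42, HSP78 and HSP104 are counted among the other Msn2/4-type targets. The horizontal axis is cut at -4 and 10.

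The size of the rise went with the signal in control cells. Across the 36 genes, Pearson's r between the control mean and the log2 fold change was -0.74 and Spearman's rho -0.76. Both measures share the control arrays, and the same r over all 5420 genes was -0.19. The 7 genes with a control mean of 14 or more had a median log2 fold change of 0.34, and 5 of them were called higher, against 10.3% of all genes that bright. In the 9 genes with control means between 6 and 10 the median was 3.02, and all 9 were called, against 36.3% of all genes in that range. The brightest value of any gene on these arrays was 15.9, and STF2 reached 15.7. Whether the signal levels off near the top was not tested. Nor was any part of it in the small changes of STF2, HOR7, PBI2, YGP1 and PNC1. TMA10, with a control mean of 14.003, rose by 1.25, the largest log2 fold change of all genes that bright.

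**Figure D3:**
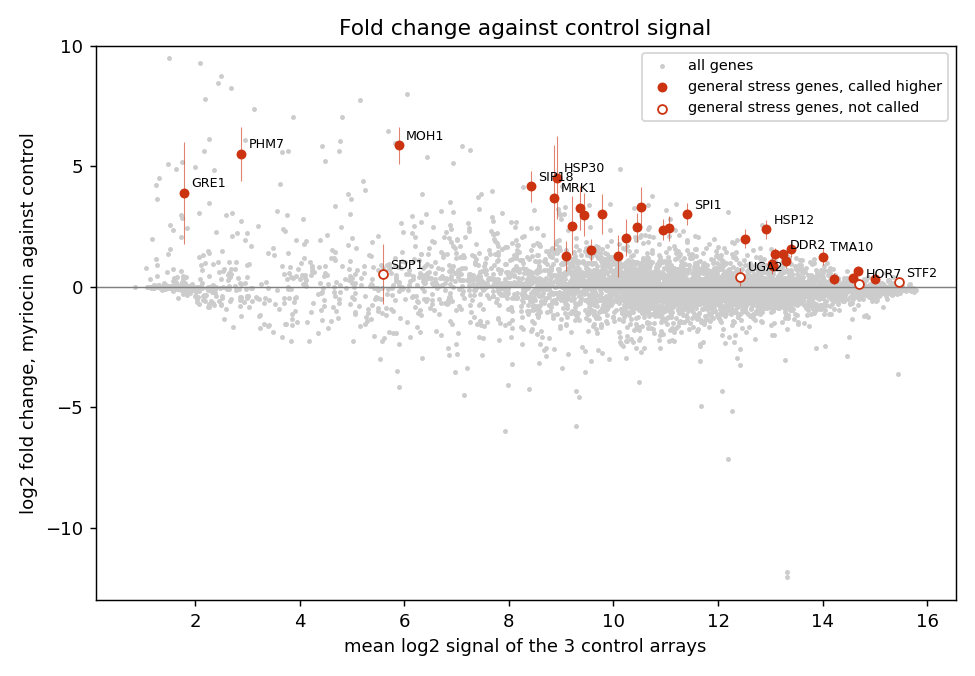
Log2 fold change (vertical axis, bars give 95% intervals) against the mean log2 signal of the 3 control arrays (horizontal axis) for the 36 general stress genes (red, open where not called) over all 5420 genes (grey). Rises are largest among genes that are dim in control cells and smallest at control means of 14 or more. GRE1 lies at background in every control array, so its point and bar give no exact fold.

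Several members belong to gene pairs that share ancestry, and 11 such pairs were read. The 95% intervals of the log2 fold changes were apart in 8 of the 9 pairs in which neither gene lay at background in every control array. The members were chosen with results of these data known, and no such share was computed for other pairs of genes. The count therefore describes these pairs alone. Within the list, SIP18 and GRE1 both rose, and with only a lower bound for GRE1 their sizes were not compared. TMA10 (0.91 to 1.59) lay above STF2, and DDR2 (1.11 to 1.59) above HOR7. For 7 members a relative outside the list was read. SSE2 rose by 2.47, while SSE1, the Hsp110 made in unstressed cells, rose by 0.20 (SE 0.06, limma adjusted p = 0.0406). The call of SSE1 was lost with replicate number as a block (limma adjusted p = 0.0735), and whichever single array was left out (0.0552 to 0.113). DCS1, the decapping enzyme that DCS2 inhibits, rose by 1.02 (SE 0.11).

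SED1, the main GPI-anchored wall protein and relative of SPI1, stood at 0.08 on the same scale (limma adjusted p = 0.403), or 0.40 after scaling to the hybridisation controls (limma adjusted p = 0.0308). HSP30 has a pair of relatives: YRO2 rose by 3.29 (SE 0.28, limma adjusted p = 0.000373), and MRH1 stood at -0.13 (limma adjusted p = 0.427), a value that turned to 0.19 after that scaling. RIM11, a kinase related to MRK1, rose by 0.28 (SE 0.08, limma adjusted p = 0.0245), a call lost when control 2, control 3, myriocin 1 or myriocin 3 was left out (0.0592 to 0.0841). SDT1, a nucleotidase related to PHM8, had -0.43 (SE 0.16, limma adjusted p = 0.0592), and was called lower with the samples paired by replicate number (0.00892), after removal of the dimmest genes (0.0443) and without control replicate 1 (0.0376). SPS100, a spore wall gene related to YGP1, did not exceed background in any control array and lay between 1.95 and 2.80 with myriocin, so it was not compared with YGP1. The 95% intervals of the member and its relative did not overlap in SSE2, DCS2, SPI1, MRK1 and PHM8, or between HSP30 and MRH1, and the differences themselves were not tested.

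**Figure D4:**
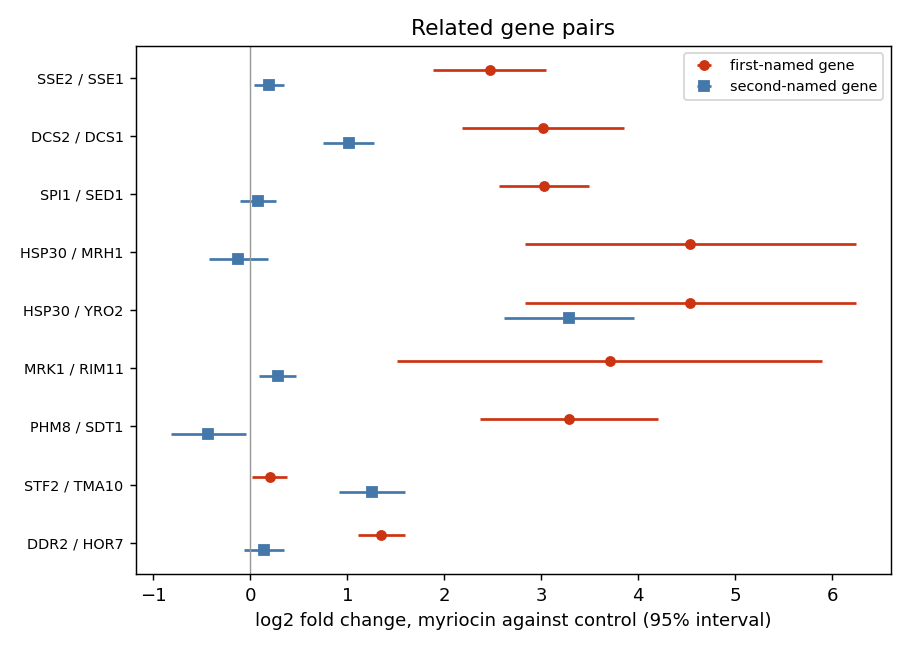
Log2 fold changes (points) with 95% intervals (bars) for 9 pairs of related genes, with the first-named gene in red and the second in blue. The intervals are apart in 8 pairs and overlap for HSP30 and YRO2. Pairs with GRE1 or SPS100, at background in every control array, are not drawn.

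MSN4 and MSN2 are themselves on a list of genes that govern the response. MSN4 rose by 1.72 (SE 0.37, limma adjusted p = 0.00877), from 9.38, 8.55 and 7.83 in control cells to 10.30, 10.36 and 10.27 with myriocin. The control samples of MSN4 were ordered as in MRK1 and XBP1, with replicate 1 highest and replicate 3 lowest. MSN2 had 9.24, 9.07 and 9.35 against 8.31, 8.91 and 9.05, a log2 fold change of -0.46 that did not pass (SE 0.20, limma adjusted p = 0.0968). RIM15, a kinase that acts on these factors when nutrients run out, and GIS1, a factor of the post-diauxic shift, had 0.16 and 0.08 and did not pass (limma adjusted p = 0.124 and 0.660). After scaling to the hybridisation controls both were called higher, and GIS1 turned to -0.05 without control replicate 3. Over all alternatives the limma adjusted p of RIM15 ran from 0.0153 to 0.960.

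Over the list of 37 regulators, 14 rose and 4 fell, and the median log2 fold change was 0.15. These are 37.8% and 10.8% of the list, against 25.5% and 28.8% of all genes. Scaled to the hybridisation controls, the list had 22 higher and 1 lower call, or 59.5% and 2.7%, against 39.9% and 12% of all genes. After MSN4, the steepest rises were in TPK2, a catalytic subunit of protein kinase A, and SCH9, a kinase under TORC1, each by 0.99, and in PDE1, the low-affinity cyclic AMP phosphodiesterase, by 0.92. PDE2, the high-affinity phosphodiesterase, fell by 1.13 (SE 0.17, limma adjusted p = 0.00242), from 10.76 to 11.03 in control cells to 9.51 to 10.12. GPR1, the glucose receptor, RAS1 and TPK3 fell by 0.64, 0.47 and 0.39. The call of PDE2 was kept after scaling to the hybridisation controls (-0.82, limma adjusted p = 0.00233), and those of GPR1, RAS1 and TPK3 were lost (0.104, 0.352 and 0.719). TPK3 also lost its call with values floored at background (0.0536) and when control 2, control 3, myriocin 1 or myriocin 3 was left out (0.0650 to 0.119). These are messenger RNA levels, and the activity and location of the factors were not measured.

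Most genes on a list of other Msn2/4 targets rose as well. That list was written with earlier results of these data known, so its counts are no independent evidence. Of 58 such genes 56 were read, and 51 rose (91.1%, against 25.5% of all genes), none fell and 5 did not pass, with a median log2 fold change of 1.27. TKL2, a transketolase at background in every control array, was at least 484-fold higher. RTN2, a reticulon of the endoplasmic reticulum, rose by 7.77, the catalase gene CTT1 by 6.46 and the aldehyde dehydrogenase gene ALD3 by 5.83. In a list of 21 chaperone genes governed chiefly by the heat shock factor Hsf1, 5 rose and 1 fell. These are 23.8% and 4.76% of the list, against 25.5% and 28.8% of all genes. The heat shock genes SSA4, HSP26, HSP42, HSP78 and HSP104 stood on the list of other targets instead. They rose by 2.52, 2.58, 1.24, 1.22 and 1.03, so the counts do not cover all heat shock chaperones. SSA3 and SSA1, of the Hsp70 family, rose by 1.02 and 0.74, the Hsp90 gene HSP82 by 0.52 and MDJ1, a mitochondrial co-chaperone, by 0.38. SSA3 was dim, at 2.75 to 2.81 in control cells and 3.64 to 3.88 with myriocin, near the background ceiling of 2.07. MGE1, another mitochondrial co-chaperone, fell by 0.48. On the scale of the hybridisation controls 8 genes of the chaperone list were higher and 0 lower, and MGE1 lost its call (limma adjusted p = 0.375). These are 38.1% and 0% of the list, against 39.9% and 12% of all genes. The higher calls numbered 2 without control replicate 2, and 3 when control 1, myriocin 2 or myriocin 3 was left out. HSP82 was not called in any of these 4 fits (limma adjusted p from 0.0561 to 0.107) or with values floored at background (0.0552), nor MDJ1 without control replicate 2 (0.0544).

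In the classic stress response of yeast, ribosome biogenesis genes fall as Msn2/4 targets rise. Here, of 40 such genes, 1 rose, 4 fell and 35 did not pass, and the median log2 fold change was -0.04. The shares of 2.5% higher and 10% lower both lay below the 25.5% and 28.8% of all genes. With the samples paired by replicate number the counts were 6 higher and 7 lower, and on the scale of the hybridisation controls 10 higher and 1 lower (25% and 2.5%, against 39.9% and 12% of all genes). DBP3 rose by 0.61, a call lost without myriocin replicate 1 or 2 (limma adjusted p = 0.0541 and 0.0522). SSF1, RPC19, UTP9 and MAK16 fell by 0.86, 0.71, 0.66 and 0.57. With that scaling the fall of SSF1 was kept (limma adjusted p = 0.0238), and the calls of RPC19, UTP9 and MAK16 were lost (0.0640, 0.0634 and 0.158). Without 1 array between 0 and 4 of the 40 were called higher: 0 without myriocin replicate 1 or 2, and 4 without myriocin replicate 3.

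Replicate samples of a group were not alike in these genes, and the arrays with the same replicate number deviated alike in both groups. Replicate 2 was never the highest of its group in any of the 36 genes, in control or myriocin cells. It was the lowest of the control arrays in 21 and of the myriocin arrays in 29, and in both groups at once in 18, or 50%, against 11.0% of all genes. The median deviation of the 36 genes from their group mean was -0.17 in control replicate 2 and -0.19 in myriocin replicate 2, on the log2 scale. The same held for the 56 other targets, where replicate 2 was never highest and was lowest in both groups in 34. Over all genes, replicate 2 was lowest in 29.7% of control and 29.0% of myriocin comparisons.

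The highest control array was replicate 1 in 18 of the genes, among them MRK1, USV1, XBP1, FMP16 and OM45, and replicate 3 in the other 18, among them HSP30, PHM8, HSP12, SPI1 and DCS2. Of the 18 genes with control replicate 3 above replicate 1, 16 also had myriocin replicate 3 above replicate 1. Of the 18 with the opposite order in control cells, 7 did. The corresponding shares over all genes were 49.6% and 42.8%. The median SD of a gene among control arrays was 0.30 for the 36 genes, against 0.12 for all genes, and among myriocin arrays 0.21 against 0.13. A control range of over 1 log2 unit was seen in 10 of the 36 genes and in 3.41% of all genes. With the replicate number as a block in the limma fit, 32 of the 36 genes were again called higher, and no member changed its call.

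**Figure D5:**
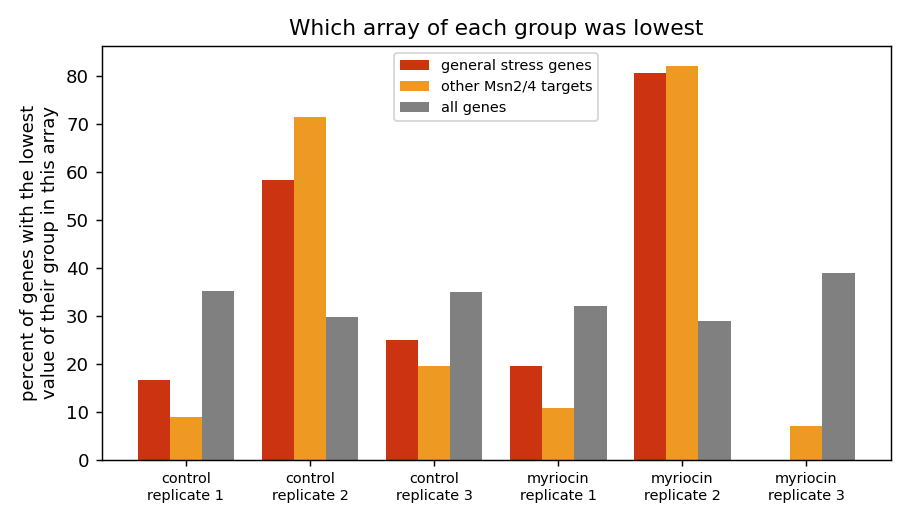
Percent of genes (vertical axis, bars) whose lowest value within a group fell in each array (horizontal axis), for the 36 general stress genes, the 56 other Msn2/4-type targets and all 5420 genes. Replicate 2 was the lowest array in 58.3% of the general stress genes among controls and in 80.6% among myriocin arrays.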

How the data were processed

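The values are log2 signals, 1 per probe set and array, normalised and deposited by the authors. The submitters' processing notes name Partek, with no version. The summarisation and the normalisation were not given in the sources used here. The authors' fold change table holds a p-value, a linear ratio and a signed fold score per probe set, per the file headers. Only its gene symbols were used, and its ratios for checking the scale: log2 of the ratio equalled the difference of group means to within 8.48e-05.

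Probe sets were named from the platform annotation updated through RefSeq (assembly R64), or from the authors' symbols (24 probe sets). Of 5900, 184 were controls, 79 named several genes in the authors' table and 192 were unnamed here. For the 24 genes with several probe sets the brightest was used. The test of myriocin against control was limma 3.58.1 (lmFit and eBayes under R 4.3.3), two-sided, with no covariate or filter. Precision is limited by the number of arrays. The median SE of a log2 fold change was 0.11, and an exact permutation test of 3 against 3 arrays cannot go below 0.10. Intervals are at the 95% level.

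The 36 members and the comparison lists were chosen with earlier results of these data known. The text names all members and their relatives, up to 4 called genes in each direction of the other lists, and MSN2, MSN4, RIM15, GIS1 and PDE2. It also names the heat shock genes SSA4, HSP26, HSP42, HSP78 and HSP104, which were placed with the other targets. Of the other targets, HSP32 shares its probe set with relatives and YJL144W was not matched.

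Replicate numbers are shared between groups in the labels. Deviations from group means correlated across genes at 0.17, 0.23 and 0.17 where the numbers matched. Where they did not, the correlations lay from -0.15 to -0.06. Deviations from a group mean cancel within a gene, so the positive values make these negative on average, and they add no support. From the positive correlations the numbers were taken to pair the samples, and the paired fit is an alternative.

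In simulated arrays with the means and spreads of these 5420 genes, 22 of 50, 76 of 100 and 48 of 50 genes changed by 0.5, 1 and 2 log2 units were recovered, and 9 of 5220 unchanged genes were called. The simulated arrays held a far smaller share of changed genes than the 54.4% called in the data. Their noise was drawn independently for each array, without the shared deviations of equal replicate numbers. These counts therefore do not give the recovery or false calls of the test on the real arrays. Figures were drawn with matplotlib 3.10.9.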

Additional observations from a re-analysis of the deposited data

How the results depend on the processing

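Alternatives were quantile normalisation, equal array medians, scaling to the hybridisation controls, removal of the dimmest 25% of genes, averaged probe sets, a robust intensity trend, values floored at background, the replicate block, other thresholds and each array left out. Of 500 fits of single members, 479 kept direction and side of the threshold, 11 lost a call, 9 gained one and 1 reversed (SDP1, -0.0071 without myriocin replicate 1, and up to 0.97 without another array). For 28 members nothing changed. Between 28 and 33 members were called higher without 1 array, with medians from 1.61 to 1.93, and 0 were called lower in any alternative. The replicate block changed no member's call. It moved the ribosome biogenesis list to 6 higher and 7 lower, and the calls of SSE1 and SDT1, as given above.

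After scaling to the hybridisation controls, 2164 genes were called higher and 651 lower, against 1384 and 1562. The regulator list had 22 higher and 1 lower, the Hsf1 chaperone list 8 and 0, the ribosome biogenesis list 10 and 1, and the median of the members was 2.10. MRH1 turned to 0.19 there, and GIS1 to -0.052 without control replicate 3, and up to 0.20 without another array. Lower calls in the Hsf1 chaperone list numbered 3 with an intensity trend, 2 under quantile normalisation and 3 with values floored at background. Without 1 array, that list had 2 to 5 higher and 1 to 2 lower calls, and the ribosome biogenesis list 0 to 4 higher ones. The cause of these shifts was not tested. The planned search of promoters for the stress response element, and the counts that rest on it, were not run.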

Other observations

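The positions of the 36 genes in the RefSeq order were not used in choosing them. No member lies directly next to another. Their immediate protein-coding neighbours included 62 measured genes that are not members, of which 20 were called higher and 12 lower by limma. Their median log2 fold change was 0.05. The share called higher was 32.3%, against 25.5% of all genes. One of these neighbours, PAI3, is itself on the list of other Msn2/4 targets, and of the remaining 61 genes 19 were called higher (31.1%). DDR48 and SIP18 flank PAI3 alone, which encodes a cytosolic inhibitor of vacuolar proteinase A. PAI3 rose by 1.65 (SE 0.21, limma adjusted p = 0.00135), and was singled out after its values were seen. GAD1 and HOR7 likewise both border GTO3, which was not called (log2 fold change 0.44, limma adjusted p = 0.0942).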
